A study of Mus musculus with 9 samples.

Results

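The genes described here encode the nuclear-encoded subunits of the oxidative phosphorylation complexes of mouse liver, together with the complex I assembly factors that share their symbols' first letters. They were taken from the deposited table by gene symbol alone, as symbols that start with Nduf (complex I), Sdha to Sdhd (complex II), Uqcr (complex III), Cox and a digit from 4 to 8 (complex IV) or Atp5 (complex V, the ATP synthase). Symbols holding -ps, a mark of pseudogenes, were left out, while gene copies under other symbols, such as Ndufb4c and Ndufs6b, stayed in. This gave 98 of the 27179 genes of the table: 51 of complex I, 4 of complex II, 8 of complex III, 18 of complex IV and 17 of complex V. The rule uses the symbols and no level or difference.

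All animals were C57BL/6J mice with a WT genotype label, kept on normal chow and injected behind the eye at 17 months of age with AAV8, an adeno-associated virus vector, and the liver was taken 3 weeks later. The 5 treated libraries came from mice given AAV8-TBG-saCas9-U6-sgCcnd1, in which the TBG promoter, active in hepatocytes, drives the Cas9 nuclease and the U6 promoter drives a guide RNA against Ccnd1, the gene of cyclin D1. The 4 control libraries came from mice given the same vector with a guide against Rosa26, so that the controls carried the virus and the nuclease too. Poly(A) RNA of a piece of one frozen liver lobe was sequenced, so cells other than hepatocytes contributed RNA, and the labels give no sex, batch or harvest time. In the order of the table's columns, the sgRosa26 libraries are named A to D here and the sgCcnd1 libraries E to I.

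Complexes I and II pass electrons from NADH and succinate to ubiquinone, complex III passes them on to cytochrome c, and complex IV hands them to oxygen. Complexes I, III and IV pump protons across the inner mitochondrial membrane, and the ATP synthase uses their return to make ATP. Most subunits are encoded in the nucleus and imported, while a small set of the most hydrophobic ones is encoded in mitochondrial DNA. Hepatocytes are rich in mitochondria and draw on this system for gluconeogenesis, urea synthesis and fatty acid oxidation.

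Values are normalized counts, meaning reads over a scaling factor that is the same for all genes of a library. The libraries held between 10840595 and 20176201 reads. Ccnd1 itself had 744 ± 110 normalized counts (SD, n = 4) in sgRosa26 and 362 ± 40.6 (SD, n = 5) in sgCcnd1, and it was the 1 gene of 12993 tested (0.0077%) that limma called at an adjusted p under 0.05 (log2 fold change -1.03, SE 0.115, adjusted p 0.0116). Log2 fold changes are differences between the group means of log2(normalized count + 1), sgCcnd1 against sgRosa26, so that for a gene with little difference the sign can differ from that of the means of normalized counts. The 6 hepatocyte markers summed to between 1659626 and 1967084 normalized counts in sgRosa26 and between 1544467 and 2021215 in sgCcnd1. The 6 heart and skeletal muscle markers summed to between 6.57 and 12.3 normalized counts in sgRosa26 and between 5.68 and 8.39 in sgCcnd1, and 3 of them (Ckm, Myh4 and Myh6) were at 0 in every library. Of the 2 brown fat markers, Ucp1 was at 0 in every library, while Cidea ranged from 6.15 to 143.8 in sgRosa26 and from 2.94 to 172.8 in sgCcnd1. T and NK cell markers had negative log2 fold changes for 4 of 4 genes tested (median -1.26), all at an unadjusted p under 0.05, with sums of 60.2 to 192.8 normalized counts in sgRosa26 and 30.0 to 115.9 in sgCcnd1. B and plasma cell markers had negative ones for 6 of 6 (median -0.45, 1 at such a p), with sums of 228 to 451 and 171 to 412. Stellate cell markers had negative ones for 5 of 6 (median -0.27, 2 at such a p; sums 3396 to 5637 and 3080 to 4646) and cholangiocyte markers for 3 of 5 (median -0.31, 1 at such a p; sums 928 to 1906 and 750 to 1165). Kupffer cell and endothelial markers had medians of -0.03 and -0.02 and 0 such p. The part of these cell types in the results below was not tested, and in whole liver fewer cells of a type and less RNA per cell cannot be told apart.

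Of the 98 genes, 89 averaged 10 or more normalized counts across the 9 libraries and were tested: 49 of complex I, 4 of complex II, 7 of complex III, 12 of complex IV and 17 of complex V. The other 9 were Cox4i2, Cox6a2, Cox6b2, Cox7b2, Cox8b, Cox8c, Ndufa11b, Ndufb11b and Uqcr11, with 0 to 27 reads over all libraries and means of at most 2.80 normalized counts. Uqcr11 is a small subunit of complex III, while the others are second isoforms, relatives or gene copies. Just inside the limit lay Ndufb4c, at a mean of 14.0.

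The subunits with the largest differences relative to their spread were mostly large catalytic or core ones. Promoter sequences are shown for 3 of them, because they differ in a word that many promoters of this system hold. Nuclear respiratory factor 1 (NRF1), a factor known to bind promoters of respiratory chain genes, recognises a word made of GCGC, an A, any base and again GCGC. The sequences below are bases before the earliest start annotated in RefSeq or GENCODE for Sdha (GRCm38.p6, chr13:74350281-74350490, minus strand), Ndufv1 (chr19:4012807-4013005, minus strand) and Atp5b (chr10:128083057-128083272, plus strand), from RefSeq, 5′ to 3′, with any match to the NRF1 word in capitals.
Sdha: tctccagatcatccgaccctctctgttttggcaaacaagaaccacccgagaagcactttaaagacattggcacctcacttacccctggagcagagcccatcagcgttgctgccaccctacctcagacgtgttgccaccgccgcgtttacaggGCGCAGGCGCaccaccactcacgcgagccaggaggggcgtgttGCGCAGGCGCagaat
Ndufv1: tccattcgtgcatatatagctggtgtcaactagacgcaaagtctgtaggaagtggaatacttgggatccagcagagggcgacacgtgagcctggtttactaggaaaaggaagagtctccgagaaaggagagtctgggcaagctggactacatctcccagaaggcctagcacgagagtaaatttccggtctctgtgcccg
Atp5b: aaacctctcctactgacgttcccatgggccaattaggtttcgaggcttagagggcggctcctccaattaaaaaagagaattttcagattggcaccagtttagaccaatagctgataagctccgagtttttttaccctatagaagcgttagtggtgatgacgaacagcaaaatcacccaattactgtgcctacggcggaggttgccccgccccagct
The printed Sdha sequence held the word at 2 places, and its full window held 3 matches, the last of them between the printed end and the RefSeq start. Neither the Ndufv1 nor the Atp5b sequence held it. In the full windows of 300 bases (250 before the start and 50 after it, both strands), 19 of the 73 tested members found in the RefSeq table held the word (26.03%), against 11.3% of 10140 tested genes. Over all 78 members found there, tested or not, the word stood in 9 of 42 genes of complex I (21.4%), 2 of 3 of complex II, 1 of 5 of complex III, 1 of 13 of complex IV (7.69%) and 6 of 15 of complex V (40.0%), and the differences between complexes were not tested. The word AANATGGC, bound by YY1, stood in 26.03% of the tested members' windows and in 9.90% of those of all tested genes. For CCGGAAG, bound by ETS factors such as GABP, the shares were 24.7% and 19.6%. The ETS and YY1 words can share letters where one runs into the other, and each word was counted on its own. A match describes letters, not binding. The 19 members with the NRF1 word had a median log2 fold change of 0.02 and the 54 without it 0.05, and without control library A the medians were -0.04 and -0.07.

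Complex II, succinate dehydrogenase, also belongs to the tricarboxylic acid cycle, and its flavoprotein Sdha oxidises succinate. Sdha had 6588, 6349, 6712 and 6952 normalized counts in controls A to D, while sgCcnd1 libraries E to I had 7969, 8247, 8085, 8186 and 9492. All 5 sgCcnd1 values lay above all 4 controls, and library I stood highest. The means were 6650 ± 251 (SD, n = 4) and 8396 ± 622 (SD, n = 5), a log2 fold change of 0.33 (SE 0.082), with a limma p of 0.0015 and an adjusted p of 0.253. The difference did not pass limma's threshold after adjustment, nor edgeR's (adjusted p 0.236), but it passed DESeq2's (adjusted p 0.00693), also without library H (adjusted p 0.0384). DESeq2 was not refitted without library I or any library other than H, so the weight of library I in this call was not tested. DESeq2 called 0.342% of genes higher and 0.634% lower, and Sdha was the 1 member among them.

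The partner of Sdha in the catalytic part, the iron-sulfur protein Sdhb, had means of 2148 ± 270 and 2294 ± 265, and its log2 fold change of 0.10 had a 95% confidence interval from -0.14 to 0.33 and was 0.05 without library A. The membrane anchor Sdhc had 2876 ± 254 and 2987 ± 196, a difference of 0.06 that became -0.01 without library A. Sdhd, the other anchor, was listed at only 28.7 ± 8.02 and 35.1 ± 13.4 normalized counts, and its difference of 0.25 (95% interval -0.36 to 0.86) was small beside its spread and ranged from 0.07 to 0.39 when any 1 library was left out. Of the 4 subunit genes of this enzyme, Sdha was the 1 with groups that did not overlap.

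Complex I, the largest of the complexes, takes electrons from NADH at the flavin-bearing subunit Ndufv1. Ndufv1 had 1479, 2069, 1639 and 2007 normalized counts in controls A to D, and 2056, 2674, 2241, 2284 and 2295 in E to I. Of the 5 sgCcnd1 libraries, 4 lay above all controls, while E fell just under control B. The means of 1798 ± 285 and 2310 ± 225 gave a log2 fold change of 0.37 (SE 0.113), p 0.0063 and adjusted p 0.297 by limma. The value stayed between 0.28 and 0.44 when any 1 library was left out.

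Ndufs1, which carries iron-sulfur clusters next to the flavin in the same arm, had 1409, 1197, 1553 and 1313 normalized counts in A to D, and 1477, 1747, 1461, 1605 and 1846 in E to I. Here the groups overlapped, with 3 of 5 sgCcnd1 libraries above all controls. The log2 fold change was 0.25 (SE 0.0999), with a limma p of 0.027 and an adjusted p of 0.388. Ndufa9, an accessory subunit at the junction of the arms, had 1163, 1494, 1300 and 1547 in A to D, and 1407, 1739, 1634, 1714 and 1612 in E to I. Of these, 4 of 5 sgCcnd1 values lay above all controls and E lay among them, with a log2 fold change of 0.24 (p 0.033, adjusted p 0.409 by limma). Without library A the difference of Ndufa9 was 0.16.

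Other core subunits of complex I differed less. Ndufs3 had 1221 ± 183 and 1281 ± 150 normalized counts, a log2 fold change of 0.07, and Ndufv2, the partner of Ndufv1, had 1554 ± 181 and 1576 ± 183, or 0.02. The iron-sulfur subunits near the membrane were, on the means, slightly lower: Ndufs7 by a log2 fold change of -0.02 (849 ± 212 and 835 ± 187) and Ndufs8 by -0.09 (866 ± 126 and 824 ± 174). Ndufs3, Ndufv2, Ndufs7 and Ndufs8 each changed direction in at least 1 alternative analysis, and the intervals of all 4 spanned 0. The difference between Ndufv1 and Ndufv2, which sit side by side in the enzyme, was not tested.

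Among the other genes of complex I, 20 of 30 accessory subunits had a positive log2 fold change (median 0.05), and between 7 (without library A) and 26 when any 1 library was left out (medians -0.08 to 0.14). For the 8 assembly factors that bear an Nduf symbol the count was 3 of 8 and the median -0.01, with 3 to 6 of 8 and medians of -0.06 to 0.06 when any 1 library was left out. The largest difference among them was that of Ndufaf5, which modifies the subunit Ndufs7 during assembly, with 66.7 ± 9.96 and 83.8 ± 11.7 normalized counts and a log2 fold change of 0.32 (p 0.052, adjusted p 0.455 by limma). It is named after its values were seen. The 4 second isoforms or gene copies tested had low levels and a median of -0.33.

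Complex III passes electrons from ubiquinol to cytochrome c, and its large core proteins Uqcrc1 and Uqcrc2 form most of its matrix part. Uqcrc2 had 2904, 3114, 3562 and 3001 normalized counts in A to D, and 3511, 3934, 3682, 3825 and 3626 in E to I. Control C lay above sgCcnd1 library E, and the other 4 sgCcnd1 libraries were above all controls. The log2 fold change was 0.24 (SE 0.082), with a limma p of 0.011 and an adjusted p of 0.334. Uqcrc1 had 2700 ± 238 and 3018 ± 319, a difference of 0.16 (95% interval -0.05 to 0.37) that was 0.09 without library A. The Rieske iron-sulfur protein Uqcrfs1, the electron-carrying member of this group, had 2800 ± 367 and 3009 ± 151, or 0.11, and 0.03 without library A. Uqcrh, the small hinge protein, had 1539 ± 278 and 1742 ± 165, or 0.19 (p 0.134, adjusted p 0.575 by limma), and 0.11 without library A.

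Complex IV, cytochrome c oxidase, has its catalytic core encoded in mitochondrial DNA, and the nuclear subunits surround it. Cox4i1, the largest nuclear subunit, had 2693, 4030, 4453 and 4632 normalized counts in A to D, and 4311, 5179, 5056, 5143 and 4376 in E to I. Control A was far below the other controls, and libraries E and I lay among those. The log2 fold change of 0.31 (p 0.052, adjusted p 0.455 by limma) was 0.14 without library A. Cox5a had 1995 ± 309 and 2067 ± 162 (log2 fold change 0.06), Cox5b 1449 ± 359 and 1357 ± 266 (-0.08), and Cox7b 1921 ± 427 and 1670 ± 458 (-0.23, 95% interval -0.67 to 0.22). The value of Cox7b ranged from -0.33 to -0.07 when any 1 library was left out. Cox5a and Cox5b each changed direction in at least 2 alternative analyses. Of the 12 tested genes of this complex, 0 had an unadjusted p under 0.05 in the main limma fit, by edgeR or by DESeq2. In alternative limma fits Cox4i1 had such a p without C, without D or without E. It also did with no minimum mean, robust eBayes, or a correction for transcript length or GC content. Cox7a1 had one without E, with quantile normalization and with the length correction. Cox6b1, which was lower, had one without A.

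Complex V is the ATP synthase, whose F1 head holds alternating alpha (Atp5a1) and beta (Atp5b) subunits, the latter bearing the catalytic sites. Atp5a1 had 11534, 11268, 13530 and 12891 normalized counts in A to D, and 14105, 14150, 14774, 15126 and 14235 in E to I. The groups did not overlap, although the gap between control C and library E was small beside the spread of the controls. The means of 12306 ± 1082 and 14478 ± 451 gave a log2 fold change of 0.24 (SE 0.088), p 0.019 and adjusted p 0.361 by limma. Atp5b had 13712, 14475, 15338 and 15093 in A to D, and 16061, 17360, 17397, 15577 and 18117 in E to I. Again the groups did not overlap, with library H closest to the controls, and the log2 fold change was 0.20 (SE 0.089, p 0.039, adjusted p 0.426 by limma).

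**Figure D1:**
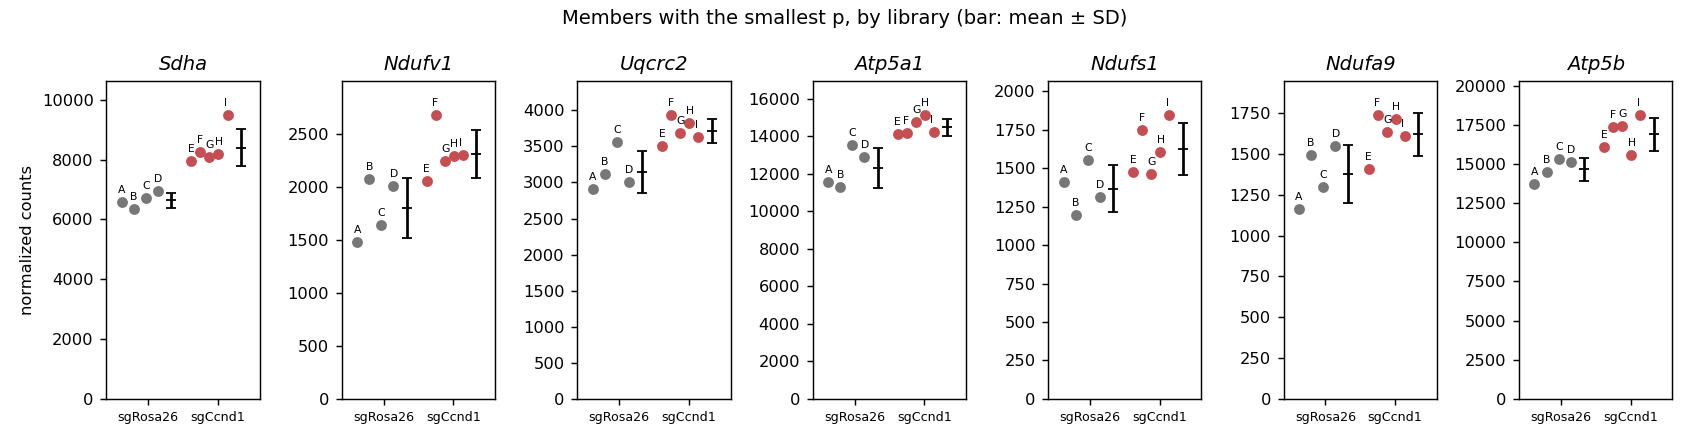
Normalized counts of the 7 members with a limma unadjusted p under 0.05, one panel per gene with its own axis from 0, one point per library (sgRosa26 in grey, A to D; sgCcnd1 in red, E to I), and bars for the mean ± SD (n = 4 and n = 5). The groups do not overlap for Sdha, Atp5a1 and Atp5b, and overlap for the other 4.

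The other 3 F1 subunits were chosen for naming after values were seen. The gamma subunit Atp5c1, which turns in the central stalk, had 3710 ± 501 and 3820 ± 183 normalized counts, and the delta subunit Atp5d had 1934 ± 230 and 1810 ± 165 (log2 fold changes 0.05 and -0.09, and -0.04 and -0.15 without library A). Atp5e, the epsilon subunit of the central stalk, had 1261 ± 425 and 1361 ± 225, a log2 fold change of 0.16 (p 0.437) that was -0.01 without library A. Subunit c, which builds the rotating ring in the membrane, is encoded by 3 genes with the same mature protein. All 3 differed little: Atp5g1 had 1247 ± 146 and 1230 ± 163 (log2 fold change -0.02), Atp5g2 823 ± 58.3 and 837 ± 97.5 (0.02), and Atp5g3 3428 ± 421 and 3509 ± 722 (0.02), and each changed direction in at least 2 alternative analyses. Atp5j2, a small membrane subunit, had 686, 1750, 963 and 2037 in A to D and 1315, 1807, 1609, 1682 and 1361 in E to I. Its log2 fold change of 0.32 (p 0.249) went with the low value of control A and was 0.03 without it. The inhibitor of the ATP synthase, listed as Atpif1 and so outside the symbol rule, had 180 ± 24.5 and 150 ± 12.2 normalized counts, a log2 fold change of -0.25 (p 0.052, adjusted p 0.455 by limma).

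Over the whole set, limma called 0 of 89 members at an adjusted p under 0.05, against 0.0% of all genes called higher. At an unadjusted p under 0.05, 7 members were higher (7.87%) and 0 lower. Among all genes tested 5.22% were higher and 5.74% lower at that level. edgeR called 0 members after adjustment and had 7 higher and 1 lower (Ndufa4l2) unadjusted, where 4.42% of all genes were higher and 6.15% lower. DESeq2 called 1 member and also had 7 higher and 0 lower unadjusted, where 4.71% of all genes were higher and 5.49% lower. The 3 members with groups that did not overlap were 3.37% of those tested, against 1.92% of all genes higher in this way. No member was below all controls in all 5 sgCcnd1 libraries (1.97% of all genes). The 7 members were Sdha, Ndufv1, Uqcrc2, Atp5a1, Ndufs1, Ndufa9 and Atp5b, and the differences of all 7 were small, between 0.20 and 0.37 on the log2 scale.

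**Figure D2:**
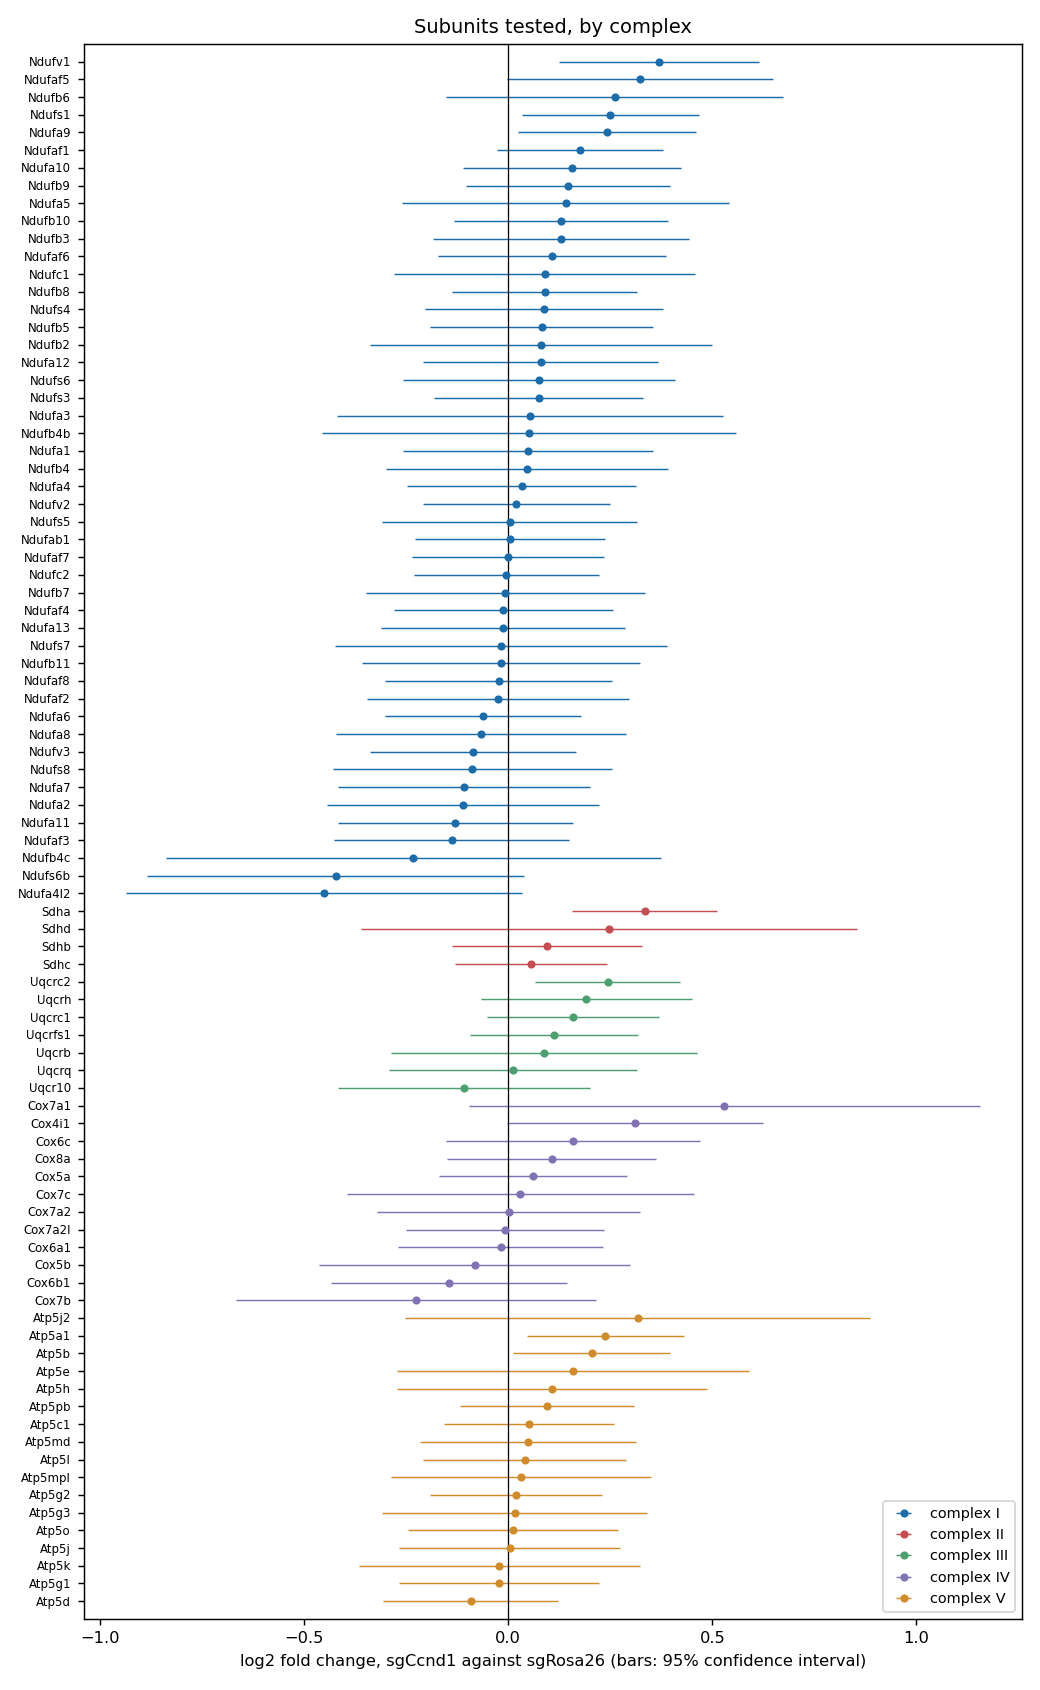
Log2 fold change (sgCcnd1 against sgRosa26, x axis) of 88 tested members, sorted within complexes I to V, with the 95% confidence interval from limma. Most intervals include 0, and the 7 that lie above it belong to Sdha, Ndufv1, Uqcrc2, Atp5a1, Ndufs1, Ndufa9 and Atp5b.

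By direction, 60 of 89 members (67.4%) had a positive log2 fold change, against 52.9% of all genes, and their median was 0.05, against 0.01. By the means of normalized counts, 57 of 89 members and 6800 of 12993 genes were higher in sgCcnd1. The count of positive log2 fold changes was 29 of 49 for complex I (median 0.05), 4 of 4 for complex II (0.17), 6 of 7 for complex III (0.11), 7 of 12 for complex IV (0.02) and 14 of 17 for complex V (0.04). By the means of normalized counts it was 12 of 17 for complex V. In complexes I, II and III the catalytic or core subunits had the highest median of the groups of subunits. In complex V it was the F1 head with the central stalk. These differences were not tested. The median was 0.07 for the core of complex I, 0.21 for Sdha and Sdhb, 0.16 for the core and Rieske proteins of complex III and 0.16 for the F1 head and central stalk of complex V, and without library A -0.03, 0.19, 0.09 and -0.01. For the small subunits of complex III it was 0.05, for the common subunits of complex IV 0.02 and for subunit c 0.02, and without library A -0.12, -0.08 and -0.06. Both medians of the F1 group were those of Atp5e, while Atp5a1 and Atp5b had 0.24 and 0.20, or 0.21 and 0.17 without library A. Under quantile normalization the accessory subunits of complex I (0.025) lay above its core (0.023). In complex II the anchors (0.17) then lay above Sdha and Sdhb (0.13).

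The count by direction changed when a single library, control A or sgCcnd1 F, was left out, and over all 9 left-out libraries it ranged from 30 to 73 of 89. Library A held the lowest value of all 9 libraries for 53 of 89 members, against 16.2% of all genes tested, and the median member lay 0.30 on the log2 scale below its mean over all 9 libraries. Without library A, 30 of 89 members had a positive log2 fold change in sgCcnd1 and the median was -0.05 (all genes 0.00). The medians then were -0.08 for complex I, 0.19 for complex II, 0.03 for complex III, -0.07 for complex IV and -0.06 for complex V. Library F stood at the other end, with the highest value for 42 of 89 members (12.0% of all genes), and control D was highest for 30 (12.9% of all genes). Without library F, 44 of 89 members had a positive log2 fold change, and the medians were -0.02 for complex I, 0.14 for complex II, 0.11 for complex III, -0.06 for complex IV and -0.02 for complex V. Without library H the median of complex IV was -0.01. Over all 9 left-out libraries the median of complex II ranged from 0.10 to 0.25, with 3 or 4 of its 4 genes positive. After rescaling to a common 75th percentile, which shifts all genes together, 48 of 89 members and 5895 of 12993 genes had a positive log2 fold change (medians 0.02 and -0.02). After quantile normalization the counts were 46 and 6761 (medians 0.01 and 0.01).

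**Figure D3:**
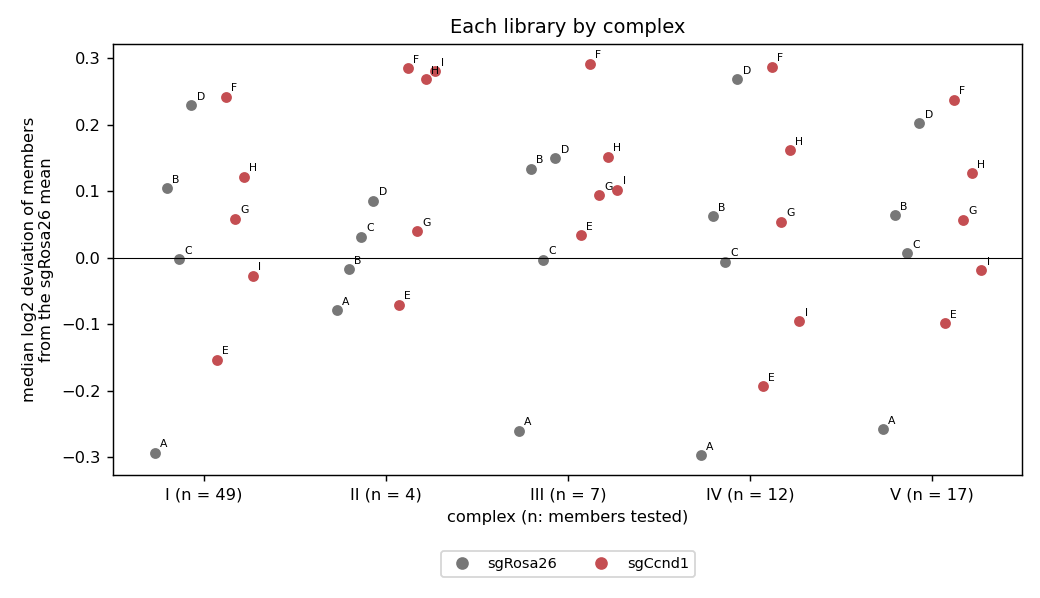
Median over the tested members of each complex of the log2 deviation of a library from the sgRosa26 mean (y axis), one point per library and complex. Library A is the lowest point in every complex, libraries D and F are near the top in complexes I, IV and V, and in complex II libraries F, H and I lie at 0.27 to 0.28, above all controls.

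Without library A, 5 of the 7 members kept an unadjusted p under 0.05 (Sdha, Ndufv1, Uqcrc2, Atp5a1 and Ndufs1), where 6.96% of all genes were higher at that level. Without B the members kept were Sdha, Ndufv1, Uqcrc2 and Ndufa9, without F or without I they were Sdha, Ndufv1, Uqcrc2 and Atp5a1, and with quantile normalization they were Sdha and Ndufv1. These last 2 had such a p in all 23 alternatives. Without library A, 4 members with a negative log2 fold change had such a p (5.71% of all genes): Cox6b1, Ndufa11, Ndufa4l2 and Ndufs6b. These 4 were named after their values were seen. The first is the subunit that joins the oxidase dimer and the second a membrane subunit of complex I. Cox6b1 had 2159, 2862, 2712 and 3419 normalized counts in A to D and 2413, 3035, 2550, 2438 and 2093 in E to I, so that the sgCcnd1 values lay within the range of the controls or, for library I, below it. Its log2 fold change was -0.15 with all libraries and -0.26 without A. Ndufa11 had -0.13 and -0.26.

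The 7 members with a limma unadjusted p under 0.05 lay above the members' median in transcript length and in mean normalized counts. The choice by symbol did not use these 2 properties. Such counts are not corrected for length. Per kilobase of principal transcript in sgRosa26, Ndufs1, Ndufa9 and Ndufv1 ranked only 65, 56 and 51 among the 88 members. The principal transcripts of the 7 were 1445 to 2900 bases long, against a median of 891.5 bases for the 88 members with a length, and their means ran from 1512 to 15903 normalized counts, against a median of 1113. Across genes, which are not independent replicates, log2 fold change and transcript length had a Spearman correlation of 0.26 over 88 members (0.35 without library A) and of 0.10 over 12556 genes (0.23 without A). For the mean level it was 0.30 over 89 members and 0.28 over 12993 genes. Of 21 members of at least 1500 bases, 17 had a positive log2 fold change (median 0.09) and 6 an unadjusted p under 0.05. Of all 10566 genes of that length, 5786 had a positive log2 fold change (median 0.02), and 620 were higher at such a p. Of 19 members under 600 bases, 10 had a positive log2 fold change (median 0.03) and 0 such a p. For all 175 genes of that length the counts were 65 and 0 higher at such a p (median -0.05). Without library A the medians of the long and the short members were 0.02 and -0.11, and those of all genes 0.02 and -0.13.

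Libraries differed in this respect within both groups. Across all genes, the Spearman correlation between transcript length and the deviation of a library from the mean of its group was 0.39 for A, 0.25 for C, -0.34 for B and -0.32 for D among the controls. In sgCcnd1 it was 0.29 for I, 0.22 for E, 0.01 for G, -0.04 for H and -0.46 for F. Short members also scattered more, with a median within-group SD of 0.27 on the log2 scale, against 0.17 for those of at least 1500 bases. A correction of each library for transcript length, added after the data were seen, left 69 of 88 members with a positive log2 fold change (median 0.07) and 16 higher at an unadjusted p under 0.05, which included all 7. Under the same correction 6505 of 12556 genes had a positive log2 fold change (median 0.01), and 6.07% were higher at such a p. GC content had a Spearman correlation with log2 fold change of -0.22 over 88 members and of -0.26 over 12556 genes. A correction for GC content, also added after the data were seen, left 59 of 88 members with a positive log2 fold change (median 0.04) and 5 of the 7 with such a p, where 4.68% of all genes were higher. Ndufs1 (p 0.05004) and Ndufa9 (p 0.0698) were the 2 without it. The part of transcript length and GC content in these differences was not tested further.

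**Figure D4:**
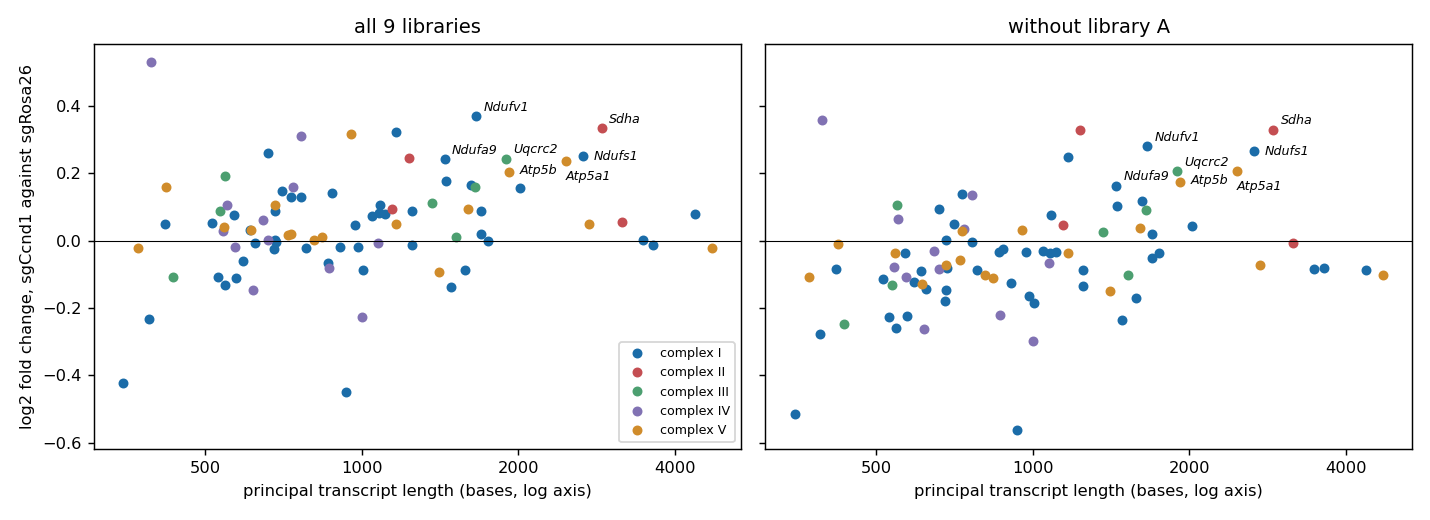
Log2 fold change (sgCcnd1 against sgRosa26, y axis) of 88 tested members against the length of the principal transcript (x axis, log scale), coloured by complex, with all 9 libraries (left) and without control library A (right). The 7 named members lie at 1445 bases or more and above 0 in both panels, while the shorter members move from around 0 to mostly below 0 on the right.

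Levels between genes were compared per kilobase of principal transcript. In sgRosa26, Atp5b was highest at 7648 ± 379 normalized counts per kilobase (SD, n = 4), followed by Ndufa4 at 6517 ± 1276, Cox4i1 at 5166 ± 1146, Atp5a1 at 4980 ± 438, Atp5g3 at 4741 ± 583 and Cox6b1 at 4512 ± 838. Neighbours in this order differed by less than the larger of their SDs, except Ndufa4 and Cox4i1, whose difference was slightly larger than that. Ndufa4 carries a complex I symbol but is now placed with complex IV. Within complex II the order was Sdha (2293 ± 86.6), Sdhb (1881 ± 236) and Sdhc (907 ± 80.2), and in sgCcnd1 Sdha reached 2895 ± 214 and Sdhb 2009 ± 232.

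**Figure D5:**
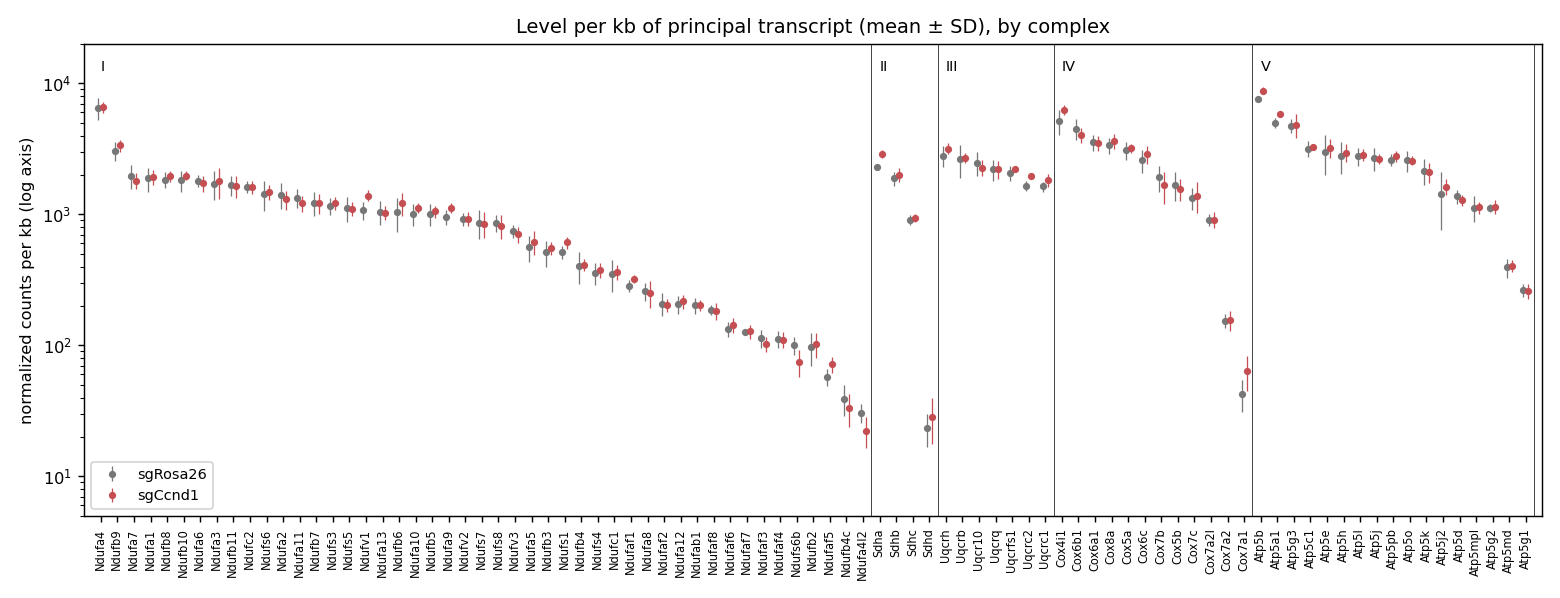
Normalized counts per kilobase of principal transcript (y axis, log scale) for 87 tested members with a length, mean ± SD in sgRosa26 (grey, n = 4) and sgCcnd1 (red, n = 5), sorted within complexes I to V. Atp5b and Ndufa4 lie at the top. Ndufa4l2 and Ndufb4c are the 2 lowest of complex I, Sdhd the lowest of complex II, and Cox7a1 and Cox7a2 the 2 lowest of complex IV in both groups.

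Several subunits have a second isoform used in other tissues or in low oxygen. In these livers Cox4i2, Cox6a2, Cox6b2 and Cox8b, known from lung, muscle, testis or brown fat, had means of at most 2.80 normalized counts, and Cox7b2 and Cox8c had 0 reads in all libraries, where 3 reads correspond to 2.29 to 4.26 normalized counts in a single library. These levels are too low for a comparison. Cox7a1, the isoform of heart and muscle, had 11.1, 16.7, 16.9 and 22.3 normalized counts in A to D, and 12.96, 31.3, 24.5, 24.99 and 31.2 in E to I. Of the 5 sgCcnd1 libraries, 4 lay above all controls, at a log2 fold change of 0.53 (95% interval -0.10 to 1.16, p 0.090, adjusted p 0.522 by limma). Cox7a2, the form of liver, had only 102 ± 13.1 and 102 ± 17.8 normalized counts. The ratio of Cox7a1 to Cox7a2 was higher in sgCcnd1 by 0.53 on the log2 scale, with an exact permutation p of 0.0476 (two-sided, 126 splits, smallest possible 0.00794) and an adjusted p of 0.190 over 4 ratios.

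Ndufa4l2, the low-oxygen relative of Ndufa4, had 22.1, 28.0, 31.0 and 33.02 normalized counts in A to D, and 19.8, 15.2, 18.6, 21.0 and 29.8 in E to I. In 4 of 5 sgCcnd1 libraries it lay below all controls, with I among them. The log2 fold change was -0.45 (p 0.066, adjusted p 0.486 by limma), and the ratio to Ndufa4 was lower by -0.48 (exact permutation p 0.0952, adjusted p 0.190). The ratios of Atp5g1 and Atp5g2 to Atp5g3 differed by -0.04 (exact permutation p 0.810) and by 0.00 (exact permutation p 0.960). Cox7a2l, a relative of Cox7a2, had 982 ± 110 and 980 ± 137 normalized counts, a log2 fold change of -0.01.

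The 13 subunits encoded by mitochondrial DNA, the partners of these proteins, had a positive log2 fold change in 4 of 13 (median log2 fold change -0.02), and 0 had an unadjusted p under 0.05 by limma, edgeR or DESeq2. The smallest p was that of ND4, a proton-pumping subunit of complex I, with 73007 ± 9263 and 65686 ± 8058 normalized counts (log2 fold change -0.15, between -0.22 and -0.08 when any 1 library was left out, adjusted p 0.711 by limma). When any 1 library was left out, 2 to 8 of 13 had a positive log2 fold change (medians -0.12 to 0.03), where the nuclear members had 30 to 73 of 89 (medians -0.05 to 0.12). The difference between the nuclear and the mitochondrial genes was not tested. These genes took 6.19 ± 0.62% of reads in sgRosa26 and 5.77 ± 0.52% in sgCcnd1, and the 98 nuclear genes took 0.957 ± 0.108% and 0.995 ± 0.058%. Poly(A) selection bears on the recovery of mitochondrial transcripts, so these shares describe the libraries.

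Of the genes around the complexes (7 lists, the mitochondrial DNA genes included), 0 passed limma's adjusted threshold. Among 13 tricarboxylic acid cycle enzymes, 11 had a positive log2 fold change (median 0.11). The count was 8 to 13 when any 1 library was left out (medians 0.06 to 0.11) and 7 with quantile normalization (median 0.01). At an unadjusted p under 0.05, 4 of the 13 were higher, against 5.22% of all genes. Dld, the dihydrolipoyl dehydrogenase shared by the ketoacid dehydrogenases, had 1592 ± 72.0 and 1921 ± 112 (log2 fold change 0.27, p 0.0032, adjusted p 0.266 by limma). It was called by DESeq2 (adjusted p 0.0467). The other 3 were Suclg2, Sucla2 and Fh1, and Sdha is not counted in that list. Suclg2 and Sucla2 encode the beta subunits of succinyl-CoA ligase, and had log2 fold changes of 0.32 (1972 ± 214 and 2456 ± 239, adjusted p 0.306) and 0.24 (1327 ± 105 and 1563 ± 81.4, adjusted p 0.334). Fh1, the fumarase, had 2075 ± 212 and 2470 ± 265, or 0.25 (adjusted p 0.390). The groups did not overlap for Dld and Suclg2, as for 1.92% of all genes.

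Among 17 genes of mobile carriers and ubiquinone synthesis, 15 had a positive log2 fold change (median 0.10), or 12 to 16 when any 1 library was left out (medians 0.02 to 0.17), and 2 had an unadjusted p under 0.05, both higher (5.22% of all genes): Etfdh, which feeds electrons from fatty acid oxidation to ubiquinone (0.26, adjusted p 0.382), and Coq10b, a ubiquinone-binding protein (0.36, adjusted p 0.399).

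Assembly factors outside the symbol rule had a positive log2 fold change in 25 of 40 (median 0.04), or in 16 to 30 when any 1 library was left out (medians -0.03 to 0.09). At an unadjusted p under 0.05, 1 gene was higher and 1 lower, against 5.22% and 5.74% of all genes. They were Tmem126b of complex I (178 ± 12.1 and 213 ± 24.1, log2 fold change 0.25, adjusted p 0.415 by limma) and Sdhaf1 (190 ± 22.8 and 151 ± 25.9, -0.34, adjusted p 0.391). Sdhaf1 helps to give Sdhb its iron-sulfur clusters. Of these 40 assembly factors, 1 lay below all controls in every sgCcnd1 library (1.97% of all genes) and 0 above (1.92%). Regulators of mitochondrial biogenesis had a positive log2 fold change in 10 of 14 (median 0.06), and in 7 to 12 when any 1 library was left out (medians 0.02 to 0.09). At an unadjusted p under 0.05, 1 regulator was higher and 0 lower, against 5.22% and 5.74% of all genes. It was Polg, the mitochondrial DNA polymerase, with 520 ± 36.9 and 599 ± 18.9 (0.21, limma p 0.020, adjusted p 0.365). Its groups did not overlap, as for 1.92% of all genes. Tfb2m, a mitochondrial transcription factor, differed by 0.23 (adjusted p 0.506). Carriers and channels for ATP, ADP and phosphate had a positive log2 fold change in 4 of 6 (median 0.13), or 4 to 5 when any 1 library was left out (medians 0.08 to 0.17), with Slc25a3, the phosphate carrier, at 0.15 and Vdac1, the outer membrane channel, at 0.16. For the large subunit of the mitochondrial ribosome the count was 24 of 48 and the median 0.00, or 11 to 35 of 48 and -0.08 to 0.07 when any 1 library was left out, with Mrpl18 at -0.20 and Mrpl12 at -0.15.

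Reads of some members may have been shared with near-identical copies. Of 96 members with a transcript sequence, 53 had no stretch of 50 bases in common with transcripts of another gene, and 15 shared at least 20% of such stretches, among them Atp5g2, Cox5b, Ndufs3, Ndufb4c and Ndufs6b. Their values are uncertain to that extent. Uqcr11, with 7 reads in all, shared 10.9% of its stretches, and Sdhd and Cox7a2 shared 0%. The cause of the low counts of Uqcr11, Sdhd and Cox7a2 was not tested, so they may not give the level of these genes. Sdha, Ndufv1, Uqcrc2, Atp5a1, Ndufs1 and Ndufa9 shared 0% and Atp5b 0.857%. Exons of Uqcrc2 overlap those of Pdzd9 on the other strand over 19.7% of their length, and no source used here gives the use of strand in counting, so these reads cannot be told apart. For Atp5a1, Ndufa9 and Ndufs1 the overlap with exons on the other strand was 3.19 to 6.16%.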

How the data were processed

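The deposited table gives 27179 genes in 9 libraries as a never-negative signal that its name calls normalized counts. Per the submitters' processing notes, Trim Galore 0.6.7, HISAT2 2.2.1, featureCounts 2.0.3 and DESeq2 2.11.40.8 were used with build mm10/GRCm38; the use of strand is not given in the sources used here. Within each library, 100% of the deposited signal values were whole multiples of 1 number within 0.01 reads, so the signal equals reads divided by 1 size factor per library. These recovered reads gave the library totals and the inputs of edgeR and DESeq2. Columns name a guide target and were matched to groups only. The labels do not say how the libraries relate to litters or batches, so p-values measure the spread between these samples.

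log2(normalized count + 1) was tested for the 12993 genes that averaged 10 or more across the 9 libraries, with limma 3.58.1 (R 4.3.3; lmFit, eBayes with trend, two-sided), adjusted by Benjamini-Hochberg over all genes tested. This scale understates changes of low genes. Alternatives were edgeR 4.0.16 (quasi-likelihood), DESeq2 1.42.0, other pseudocounts, filters and scalings, and leaving out each library. The fits were tested on simulated data. The members, the other gene lists, the promoter words and the tests were chosen with earlier results of these data known. Named were all genes passing adjustment or the 3 with the smallest p per complex, all without overlap between groups, the most abundant member per complex, and preset core, catalytic, second-isoform and subunit c genes, plus, of each other list, the 2 genes with the smallest p; Sucla2 and Fh1 were added after their values were seen; 1 of these members is not reported here. Transcript lengths are those of the GENCODE M21 principal transcripts, and promoter sequences and coordinates come from RefSeq (GRCm38.p6), where 78 members matched.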

Additional observations from a re-analysis of the deposited data

Results flagged for a closer look

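A sample far from the others of its group was found in 2 of the 78 groups of values examined (29 named members, 4 isoform ratios and 6 medians of complexes or all members, in each group), where chance gives about 1 in 20, or 3.9. Sdha in sgCcnd1 library I had 9492 normalized counts, against 7969 to 8247 in the other 4 sgCcnd1 libraries. Uqcrc1 in sgRosa26 library A had 2344, against 2787 to 2834 in the other 3 controls. Without these libraries the log2 fold changes stayed within 0.29 to 0.36 for Sdha and 0.09 to 0.20 for Uqcrc1, over the leaving out of each library in turn.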

How the results depend on the processing

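No paired analysis was possible because no replicate number is given in the column names. Of 29 named members tested, 17 kept the direction of their log2 fold change in all 22 or 23 alternatives tried for each, the 7 with a limma unadjusted p under 0.05 among them; 12 changed direction. DESeq2 called 1 member higher (Sdha), and 1 without library H, where limma called 0. The count of members higher at an unadjusted p under 0.05 was 16 with a correction for transcript length, 4 with quantile normalization, 4 with edgeR without library H, and 4 to 11 when each library was left out in turn (4 without F or without I, 11 without D). The count lower was 1 after rescaling to the 75th percentile, 1 with edgeR under TMM and 1 under RLE scaling, and 0 to 4 when each library was left out (4 without A). The difference of the Atp5g2/Atp5g3 ratio ranged from -0.093 to 0.087 and that of Atp5g1/Atp5g3 from -0.14 to 0.035 over the left-out libraries.

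Under 75th percentile rescaling the log2 fold change was -0.014 for Atp5g2, -0.018 for Atp5g3, -0.00068 for Ndufa4 and -0.014 for Ndufv2. Under quantile normalization it was -0.011 for Atp5g2, -0.072 for Atp5g3, -0.0033 for Cox5a, -0.055 for Ndufa4, -0.053 for Ndufv2 and -0.017 for Sdhc. With the GC correction it was -0.029 for Ndufa4, 0.056 for Ndufs7 and -0.048 for Ndufv2, and with the length correction 0.012 for Cox7a2l and 0.0026 for Ndufs7. Without library H it was -0.013 for Atp5g2, -0.038 for Atp5g3 and 0.0028 for Cox7a2l with DESeq2 and -0.018 for Atp5g2 and -0.043 for Atp5g3 with edgeR. Leaving out each library in turn gave -0.10 to 0.041 for Atp5g1, -0.033 to 0.068 for Atp5g2, -0.058 to 0.13 for Atp5g3, -0.029 to 0.15 for Cox5a, -0.22 to 0.024 for Cox5b, -0.082 to 0.057 for Cox7a2l, -0.089 to 0.12 for Ndufa4, -0.030 to 0.14 for Ndufs3, -0.16 to 0.12 for Ndufs7, -0.19 to 0.033 for Ndufs8, -0.053 to 0.085 for Ndufv2 and -0.0082 to 0.092 for Sdhc. The cause was not tested. Of the tested members, 6 had means under 50 normalized counts: 5 second isoforms or gene copies, and Sdhd. The correction for length, that for GC content and the fits without library H were chosen after seeing the data.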
